A study of Drosophila melanogaster with 5 samples.

Results

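The expanded (ex) locus was described as every peak of Yorkie (Yki), of Scalloped (Sd) or of RNA polymerase II (Pol II) that overlapped the window of chromosome arm 2L from 400 to 500 kb, on genome build dm3. The window was chosen by position, as the region of ex. Earlier results of these data were known by then, among them its high Sd count. The window held 53 of the 24341 peaks of the 3 lists: 16 of the 11679 for Yki, 13 of the 2557 for Sd and 24 of the 10105 for Pol II. The lists came from chromatin immunoprecipitation and sequencing (ChIP-seq) on eye discs of third-instar Drosophila melanogaster larvae, with 3 immunoprecipitations and 2 inputs among 5 samples. The Yki and Sd samples carried GMR-Gal4 and UAS-Drosophila Yki S168A, and the Pol II sample carried GMR-Gal4 and UAS-Drosophila Yki-V5; each genotype had 1 input, whose values were not analysed here. All samples were labelled with ectopic cell proliferation. GMR-Gal4 drives expression in the posterior eye disc, whereas the chromatin came from whole discs in pools of 200, with about 300 discs and 10 µg of antibody per immunoprecipitation. No sample lacked a Yki transgene, and antibody and genotype differ together wherever Pol II is set beside Yki or Sd.

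Expanded is a FERM-domain protein of the apical cell cortex that acts upstream in the Hippo pathway, where it promotes phosphorylation and cytoplasmic retention of Yki. Yki, a coactivator of transcription, is the pathway's effector in the nucleus, and Sd is the TEAD-family protein that brings it to DNA. Transcription of ex itself is raised by active Yki, which closes a negative feedback loop, and reporters of ex are commonly used to read Yki activity in imaginal discs. S168A removes a site through which the pathway restrains Yki. Pol II peaks mark transcribed and paused genes.

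The files pair no peak with a gene, and gene names were taken from a Release 6 table, another build, so peaks were not assigned to ex or to any neighbour, and disc identity was not checked from gene markers. In the Release 6 order, the 10 genes before ex, from the far one inward, are lncRNA:CR43718, CG4213, Polr1B, AP-2alpha, ebi, CG13690, RpLP1, CG11885, CG13692 and BBS8. The 10 after it are lncRNA:CR43717, crq, shv, CR43080, CG4133, CG4297, MED15, ush, cbt and lncRNA:CR46258. Of these 20 neighbours 16 are protein-coding. They include RpLP1, a protein of the ribosomal stalk, ebi, a WD-repeat corepressor subunit, crq, a scavenger receptor for apoptotic cells, and ush, a cofactor of GATA factors.

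Each list came from 1 library, so there is no replicate spread, no test and no p-value; ranks and shares below describe these libraries. Depth is unknown. Every peak has a score from the authors' peak caller, whose unit no header states. It is given as deposited and, because lists differ in scale, as a percentile in the peak's own list (0 lowest, 100 highest, ties by mean rank). The Yki scores ran from 3.01 to 128, the Sd scores from 2.00 to 16.3 and the Pol II scores from 3.01 to 155. A width is in bp, a gap is the number of bases between the edges of 2 peaks, and peaks overlapped when they shared at least 1 bp.

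Sd peaks were concentrated in the part of the window with the lower coordinates. Between 400 and 450 kb there were 11 Sd, 9 Yki and 18 Pol II peaks, and between 450 and 500 kb there were 2 Sd, 7 Yki and 6 Pol II peaks. Of the 9 Yki peaks of the lower part 7 held Sd, against 2 of the 7 in the upper part. Merging all overlapping peaks gave 25 separate sites. Of these, 6 carried all of Yki, Sd and Pol II, 3 carried Yki and Sd, 4 carried Yki and Pol II, 2 carried Yki alone and 10 carried Pol II alone. As shares of the 25 sites these were 24.0, 12.0, 16.0, 8.00 and 40.0%, against 7.63, 8.41, 31.0, 28.9 and 23.8% of the 2581 other sites of 2L. Because the Sd count of the window was known to be high, the shares of sites with Sd are no separate result.

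**Figure D1:**
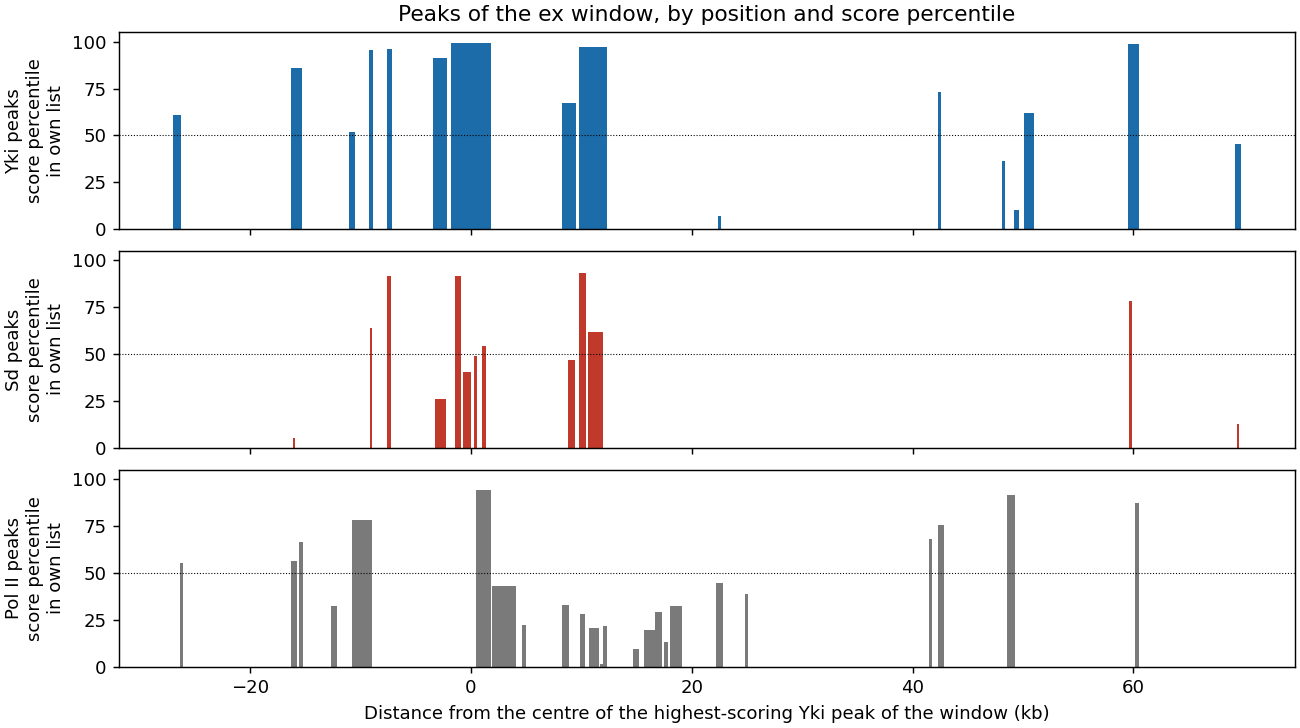
All 53 peaks of the ex window, drawn at their distance in kb from the centre of the highest-scoring Yki peak, with bar height as the score percentile in the peak's own list (Yki above, Sd in the middle, Pol II below; the dotted line is the list median). Of the 13 Sd peaks 11 lie within 20 kb of that centre, and most Pol II peaks of the first 25 kb above it are under their list median.

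The first sites of the window carried Pol II and a single weak Sd peak. A Yki peak from 403573 to 404354 (782 bp, score 26.5) overlapped a Pol II peak from 404188 to 404527 (score 37.5), and the nearest Sd peak was 10102 bp away. The next Yki peak, from 414310 to 415233 (924 bp, score 45.3, percentile 86.1), held an Sd peak from 414457 to 414685 with a score of 3.06. That is the lowest Sd score of the window, at percentile 5.18 of the Sd list. Pol II peaks from 414267 to 414852 (score 38.9) and from 415016 to 415371 (score 57.0) lay on the same Yki peak. A Pol II peak from 417944 to 418450 (score 14.2) stood alone, 1063 bp from Yki.

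Farther along, 3 Yki peaks followed each other with gaps of 1296 and 1208 bp, and the 2 with the higher scores held Sd. The first, from 419514 to 420032 (519 bp, score 22.2), had no Sd. The second, from 421329 to 421730 (402 bp, score 64.1, percentile 95.7), held an Sd peak from 421394 to 421639 with a score of 8.20. A Pol II peak of 1830 bp from 419773 to 421602 (score 80.7, percentile 78.3) reached across the gap and overlapped both. The third Yki peak, from 422939 to 423401 (463 bp, score 65.2, percentile 96.0), held an Sd peak from 422978 to 423333 whose score of 12.2 was at percentile 91.8. This Yki and Sd site had no Pol II peak; the nearest was 1336 bp from the Yki peak.

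The densest group of Sd peaks lay on a pair of neighbouring Yki peaks. The first, from 427172 to 428373 (1202 bp, score 52.6, percentile 91.3), was covered over 83.7% of its length by an Sd peak of 1006 bp from 427290 to 428295. That Sd peak was the sixth widest of its list but had a low score, 5.03 (percentile 26.2). After a gap of 378 bp came the Yki peak from 428752 to 432380, which had the highest Yki score of the window, 88.6, rank 104 of 11679. Its width of 3629 bp was rank 3 in the list.

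This widest Yki peak held 4 Sd peaks with gaps of 234, 255 and 450 bp between them, which together covered 52.4% of it. They ran from 429119 to 429660 (542 bp, score 12.2, percentile 91.7), from 429895 to 430593 (699 bp, score 6.06), from 430849 to 431153 (305 bp, score 6.82) and from 431604 to 431957 (354 bp, score 7.26). The first of the 4 was the strongest, and the other 3 lay between percentiles 40.5 and 54.5. Among all Yki peaks, 4 held 4 Sd peaks, 1 held 5 and none held more.

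Pol II lay on the upper end of the same Yki peak and beyond it. The Pol II peak from 431066 to 432398 (1333 bp) had the highest Pol II score of the window, 115, at percentile 94.1, and overlapped the last 2 of the 4 Sd peaks. The first 2 were 1405 and 472 bp from Pol II. A Pol II peak of 2110 bp from 432519 to 434628 (score 22.5) began 120 bp after the first, and a smaller one from 435162 to 435540 (score 9.32) followed. Neither of these overlapped Yki or Sd.

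**Figure D2:**
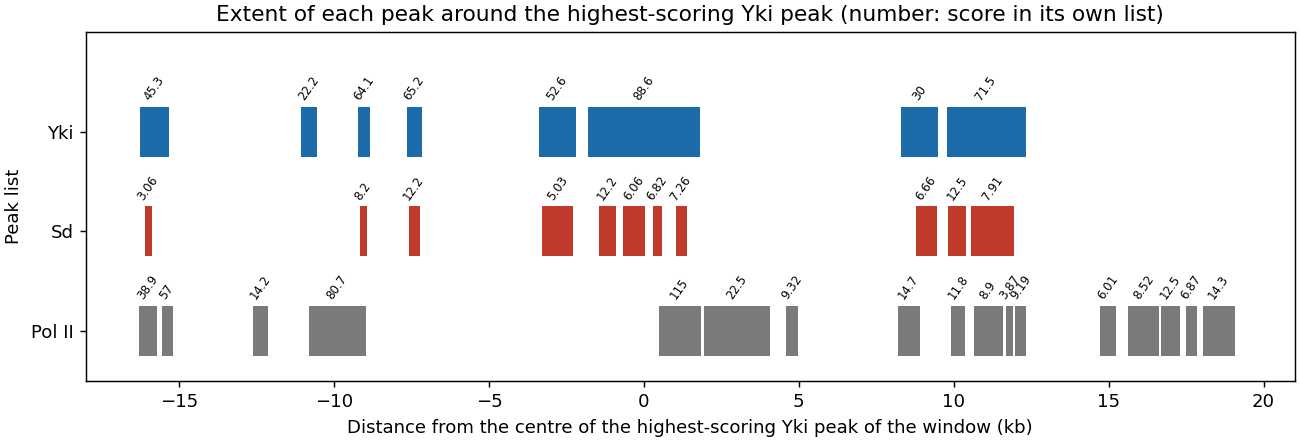
Extent of each peak within 18 kb below and 21 kb above the centre of the highest-scoring Yki peak of the window, in kb, with Yki, Sd and Pol II on separate rows and the score in the peak's own list as a number. The widest Yki peak (score 88.6) holds 4 Sd peaks, and its upper end meets the Pol II peak with a score of 115; the Yki peak with a score of 71.5 holds 2 Sd and meets 4 Pol II peaks.

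A further pair of Yki peaks, 6477 bp beyond, was broadly covered by Sd but carried weak Pol II peaks. The first, from 438858 to 440075 (1218 bp, score 30.0, percentile 67.4), held an Sd peak of 683 bp from 439345 to 440027 (score 6.66) and overlapped a Pol II peak from 438784 to 439472 (score 14.7). After a gap of 269 bp, the second Yki peak ran from 440345 to 442898 (2554 bp, score 71.5, rank 315). It was rank 16 by width, and Sd covered 77.4% of it.

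Of the Sd peaks inside that second Yki peak, the one from 440394 to 440977 (584 bp) had the highest Sd score of the window, 12.5, at percentile 93.1. The other, from 441132 to 442525, was 1394 bp wide, rank 2 of 2557, with a score of 7.91. The 4 Pol II peaks on this Yki peak ran from 440490 to 440942, from 441235 to 442142, from 442269 to 442493 and from 442560 to 442905, with scores of 11.8, 8.90, 3.87 and 9.19. All of them lay between percentiles 1.41 and 28.0 of the Pol II list, whereas the Yki peak was at percentile 97.3.

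Beyond these, a run of 5 Pol II peaks had neither Yki nor Sd. They ran from 445278 to 445798, from 446201 to 447201, from 447257 to 447861, from 448065 to 448404 and from 448608 to 449652. Their scores were 6.01, 8.52, 12.5, 6.87 and 14.3, and gaps of 55 to 402 bp separated them. The nearest Yki peaks were 2379 to 4523 bp away. Next to this run, a Yki peak from 452928 to 453229 had the lowest Yki score of the window, 6.995 (percentile 6.83). It lay inside a Pol II peak from 452793 to 453378 (score 24.0). A lone Pol II peak followed from 455423 to 455699 (score 18.5).

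The window then held a stretch with no peak of any list from the end of that Pol II peak to 472048, or 16.3 kb. Counted by list, the longest gap inside the window was 19.6 kb for Yki and 47.6 kb for Sd. Such gaps were not rare on 2L: 276 of 2072 Yki gaps and 159 of 476 Sd gaps were longer.

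After this stretch, Yki and Pol II occurred without Sd. A Pol II peak from 472048 to 472348 (score 59.8) was 489 bp from a Yki peak, and one from 472893 to 473450 (score 75.4) overlapped the Yki peak from 472838 to 473162 (score 33.7, percentile 73.4). A Pol II peak from 479140 to 479817 with a score of 109 (percentile 91.6) met the edge of a weak Yki peak from 479790 to 480224 (score 8.11). The Yki peaks from 478678 to 478949 (score 16.2) and from 480664 to 481595 (932 bp, score 27.0) had neither partner, and were 190 and 846 bp from that Pol II peak.

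The upper end of the window held 2 further sites with Sd. A Yki peak from 490079 to 491045 (967 bp) had the second-highest Yki score of the window, 83.7, rank 144. It held an Sd peak from 490140 to 490419 (score 9.65, percentile 78.4) near its lower edge and overlapped a Pol II peak from 490669 to 491087 (score 98.9, percentile 87.2). The Sd and Pol II peaks did not meet; 249 bp lay between them. At the border, a Yki peak from 499805 to 500326 (score 19.5) held a weak Sd peak from 499918 to 500127 (score 3.90). These ran 326 and 127 bp past the end of the window, and the nearest Pol II peak was 8717 bp from the Yki peak.

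The window had more Sd peaks than any of the other 228 full 100 kb windows of 2L. Its high Sd count was known when it was chosen, so this rank is a description and no test. The window held 13 Sd peaks, against a median of 2 and a highest count of 9 in the other windows, of which 53 held none. The next windows by Sd were 12000 to 12100 kb with 9 Sd peaks, 3700 to 3800 kb and 14500 to 14600 kb with 8 each, and 2100 to 2200, 2400 to 2500 and 7800 to 7900 kb with 7 each. In covered length the difference was wider: Sd peaks spanned 6761 bp of the window, against a median of 481.5 bp and at most 4904 bp in the others. With Sd peaks up to 500 bp apart joined the window held 8, against at most 7 elsewhere on the arm, and with the higher-scoring 50% of Sd peaks 7, against at most 5.

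Yki and Pol II were also dense, though not the densest on the arm. The window held 16 Yki peaks, against a median of 9 in the other windows; 29 windows held more and 7 held as many. It held 24 Pol II peaks, against a median of 5, and 5 windows held more. With the higher-scoring 50% of each list the window held 12 Yki peaks, and 3 windows held more. It held 9 Pol II peaks at that setting, and 15 windows held more. With peaks of 1 list up to 500 bp apart joined it held 13 Yki and 15 Pol II peaks, and 23 and 5 windows held more. By covered length, Yki peaks spanned 15122 bp, and 1 window had more (15463 bp, at 12000 to 12100 kb). Pol II peaks spanned 16393 bp, and 5 windows had more. Counting all lists together, the window held 53 peaks against a median of 17.5, and 3 windows held more. The adjoining windows held fewer Sd and Pol II peaks, with 8 Yki, 4 Sd and 5 Pol II peaks below it and 17, 6 and 14 above it.

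**Figure D3:**
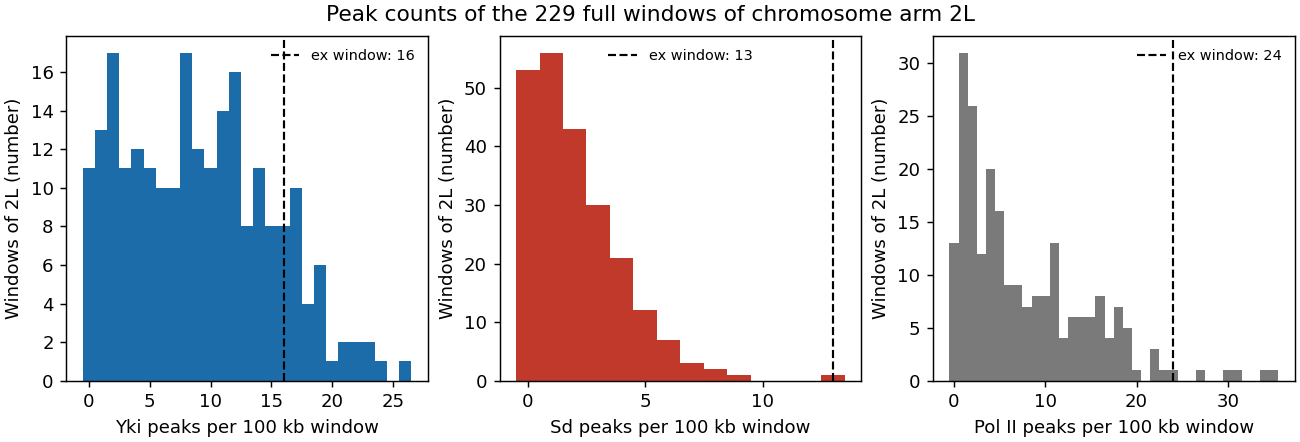
Number of full 100 kb windows of 2L (vertical axis) with a given number of Yki, Sd or Pol II peaks (horizontal axis); the dashed line is the ex window. It stands at 16 Yki peaks within the spread of the arm, at 13 Sd peaks above every other window, and at 24 Pol II peaks in the upper tail.

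The Sd count was high for the number of Yki peaks present. With 13 Sd to 16 Yki peaks the ratio was 0.812, against a median of 0.20 and a highest value of 0.75 in the other 164 windows of 2L with at least 5 Yki peaks. Its numerator is the Sd count known to be high, so this first rank is a description too. That first rank was lost under 2 alternatives: with the higher-scoring 50% of each list the ratio was 0.58 and 6 windows had a higher one, and with peaks of 1 list up to 500 bp apart joined it was 0.62 and 4 had a higher one. Across the 40 other windows with 14 to 18 Yki peaks, Sd peaks numbered 0 to 8 (median 3) and Pol II peaks 1 to 27 (median 14). Other windows with many Yki peaks varied in Sd. At 14500 to 14600 kb there were 26 Yki, 8 Sd and 1 Pol II peaks, and at 10200 to 10300 kb there were 24, 4 and 35. At 9900 to 10000 kb there were 23 Yki, 2 Sd and 15 Pol II peaks, and at 19100 to 19200 kb 23, 3 and 30. The windows at 2100 to 2200 kb and at 16500 to 16600 kb had 22 Yki peaks each, with 7 and 5 Sd peaks.

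**Figure D4:**
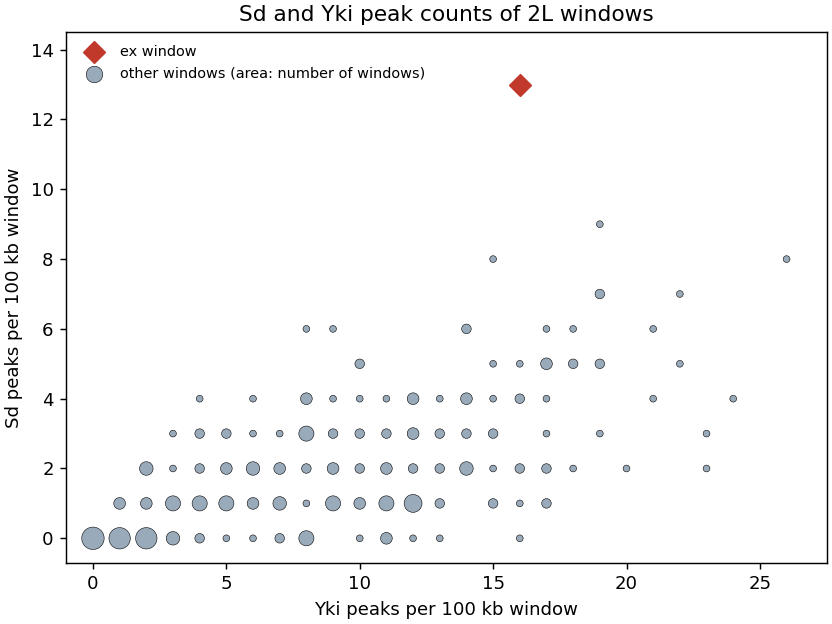
Sd peaks (vertical) against Yki peaks (horizontal) per 100 kb window of 2L; the diamond is the ex window and circles are other windows, with area proportional to the number of windows at that point. The ex window (16 Yki, 13 Sd) lies above all other windows, whose highest Sd count is 9.

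The Sd peaks lay close together, whereas the median gap between Yki peaks was not shorter than over the rest of the arm. The median gap between neighbouring Sd peaks was 1080.5 bp in the window (n = 12 gaps, 154 to 47614 bp), against 23087.5 bp over the rest of 2L. With so many Sd peaks in 100 kb the median gap could not be as long as over the rest. Its direction therefore restates the Sd count and is no separate result. For Yki the median gap was 4280 bp (n = 15) against 3838 bp, though the upper quartile was lower, 8621 against 10687 bp. For Pol II the median gap was 1017 bp (n = 23) against 2421 bp. The 11 Sd peaks from 414457 to 442525 spanned 28.1 kb; this run was picked out with its values in view. No other run of 11 successive Sd peaks on 2L was shorter (467 overlapping runs, median 448 kb), and 1 was among 2448 runs on the 6 arms. For shorter runs the window did not hold the extreme: its tightest 7 Sd peaks spanned 10.6 kb, with 3 shorter runs on 2L and 4 on the 6 arms, and its tightest 4 spanned 2839 bp, with 5 and 9.

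All 13 Sd peaks overlapped a Yki peak, and each lay wholly inside it. Over the whole Sd list 97.7% overlapped Yki. In 93.3% of the 2490 other overlapping pairs the Sd peak lay wholly inside, so both shares are near the background. The median distance from the centre of an Sd peak to that of its Yki peak was 219.5 bp (13 to 1214.5 bp). Over the 2490 other overlapping pairs it was 60.0 bp. The widest Yki peak, with 4 Sd peaks spread along it, gave 4 of these distances.

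Of the 16 Yki peaks 9 held an Sd peak, or 56.2% (exact Clopper-Pearson 95% interval 29.9 to 80.2), against 20.1% of the whole Yki list. This interval treats peaks as independent and covers counting error only. The Sd count of the window was known to be high, and 97.7% of all Sd peaks overlap Yki. A high share therefore largely restates that count and is no separate result. Using only the middle 200 bp of peaks, the share was 25.0% (7.27 to 52.4), against 16.6% in the rest of the series, which lies inside that interval. The Yki peaks with Sd scored higher than those without, with a median of 64.1 (19.5 to 88.6) against 22.2 (6.995 to 33.7), and the ranges overlapped. They were also wider, with medians of 967 and 435 bp. The share follows Yki score and width across the series, so the count was also set against peaks of like score or width. At the shares of the rest of the series within deciles of Yki score, 5.79 of the 16 would hold Sd, and within deciles of width 5.37. Among the 6 Yki peaks in the highest decile of score 6 held Sd, against 69.2% of the 1162 others. Among the 7 in the highest decile of width 6 held Sd, against 52.9% of the 1161 others. Among the 4 wider than 1000 bp 4 held Sd, against 58.9% of 739. These comparisons with like peaks carry the same known Sd count, so they describe the window and test nothing.

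Pol II overlapped 11 of the 16 Yki peaks, or 68.8% (41.3 to 89.0), against 54.3% of the whole Yki list, which lies inside the interval. It overlapped 6 of the 9 Yki peaks with Sd and 5 of the 7 without, against 46.6% of 2336 with Sd and 56.1% of 9327 without over the rest of the series. Of the 13 Sd peaks 7 overlapped Pol II, or 53.8% (25.1 to 80.8), against 39.8% of the whole Sd list. From the side of Pol II, 14 of 24 peaks overlapped Yki, or 58.3% (36.6 to 77.9), against 63.3% of the whole list. Sd met 7 of the 24, or 29.2% (12.6 to 51.1), against 9.90% of the whole list, and these 7 lay on 5 Yki peaks that held Sd. This share too rests on the Sd count known to be high and is no separate result.

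By score, the Yki peaks of the window stood high in their list, the Sd peaks near the middle and the Pol II peaks low. The Yki peaks had a median percentile of 70.4, with 12 of 16 above the list median and 6 above percentile 90. The Sd peaks had a median of 54.5, with 7 of 13 above the list median and 3 above percentile 90. The Pol II peaks had a median of 35.8, with 9 of 24 above the list median and 2 above percentile 90. The low Pol II values lay between 400 and 450 kb, where 13 of 18 peaks were under the list median; between 450 and 500 kb 2 of 6 were.

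All lists had wide peaks here. Yki peaks had a median width of 652 bp in the window, against 402 bp over the rest of the series; for Sd these were 356 and 269 bp, and for Pol II 539.5 and 423 bp. Of the Sd peaks wider than 1000 bp, 2 were in this window and 5 in the rest of the series. Of the 5 Pol II peaks wider than 1000 bp 2 overlapped Yki, against 78.2% of the 1293 such peaks in the rest of the series.

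**Figure D5:**
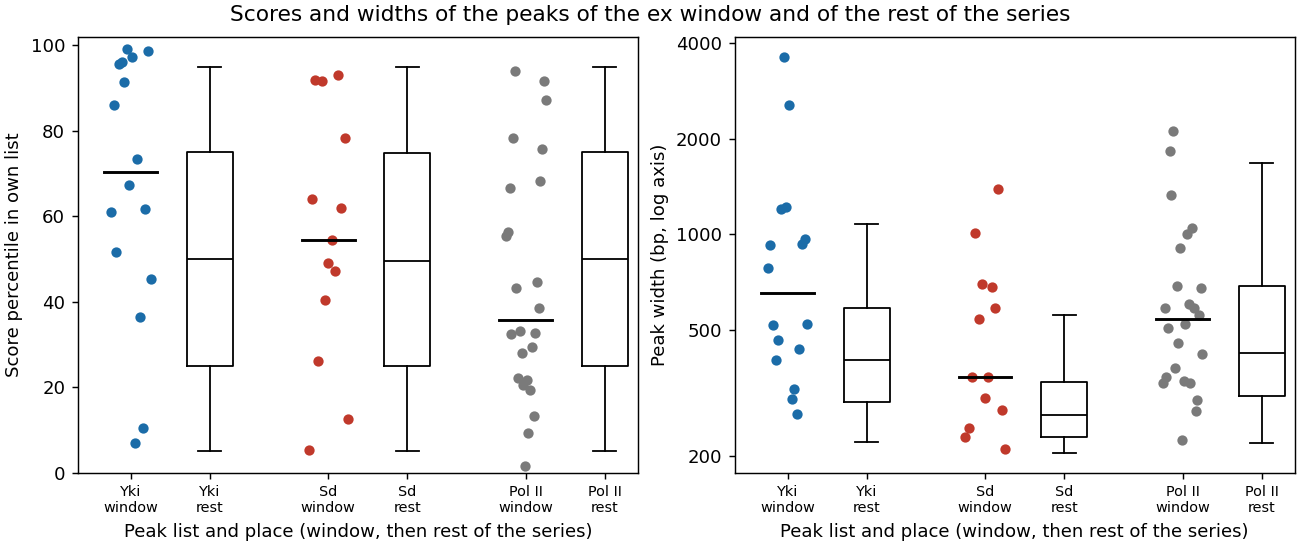
Score percentile in the peak's own list (left) and width in bp on a log axis (right) for each peak of the ex window (points, with the median as a bar) and for the rest of the series (box: quartiles and median; whiskers: percentiles 5 and 95). The window's median percentiles are 70.4 (Yki), 54.5 (Sd) and 35.8 (Pol II), and the widest Yki (3629 bp) and Sd (1394 bp) peaks lie above the whiskers.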

How the data were processed

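ChIP-seq peak lists of 3 immunoprecipitations (Yki, Sd, Pol II; 1 library each) were analysed; the inputs had no values here. The submitters' processing notes name build dm3 and the tools CASAVA (1.8.2), MACS2 and Bowtie; for other versions, parameters and the control library, the sources used here give nothing. A line of a deposited list holds a position, a name and 1 score from the authors' peak caller, with no header. A score limit of the caller and the unknown depth set how many peaks a list holds, and a caller may divide a broad region into several peaks, which raises counts.

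Starts were turned to 1-based. All peaks that overlap the window are named. Windows of 100 kb began at base 1 of 2L; a peak counted in each window it overlapped, and the last partial window was left out. Arm lengths were the last peak end. Windows named are the 5 with the most Sd or Yki peaks, any tied with the last, and the adjoining ones; genes named are ex and 10 neighbours on each side. The window and these measures were chosen with earlier results of these data known, among them its high Sd count. Code was tested on simulated peaks with planted overlaps. The planned promoter motif was not run, for want of sequence. Python 3.11.15 ran the work, with matplotlib 3.10.9, scipy 1.17.1, pandas 2.3.3 and numpy 2.4.6.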

Additional observations from a re-analysis of the deposited data

How the results depend on the processing

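With nothing replicated, a share was taken as moved when it left its exact 95% interval, and a count, ratio or gap when it changed by over 1.5 times. By these limits 37 of 52 recomputed values did not move and 15 did. This tally does not measure stability. Counts could not change with windows of all 6 arms, and could only stay or fall with 50 kb windows or the higher-scoring 50%. The intervals were wide: with the higher-scoring 50% the Sd share on Pol II went from 53.8 to 28.6% and was not taken as moved. In the rest of the series that share went from 39.7 to 27.9%, so at this setting the window was near it. With peaks reduced to their central 200 bp, the Yki share with Sd was 25.0% and the Sd share on Yki 30.8%. The Yki share on Pol II was 18.8% and the Pol II share with Yki 12.5%. The corresponding shares in the rest of the series were 16.6, 76.1, 29.2 and 33.8%. Wide peaks lose most of their length at this setting, and what lowered the shares was not tested. With only the higher-scoring 50% of every list, the window held 7 Sd peaks, still the highest count on 2L. It held 12 Yki peaks, with 3 windows above it, and 9 Pol II peaks, with 15 above it. The ratio of Sd to Yki was 0.58, with 6 windows above it. With peaks of 1 list up to 500 bp apart joined, an alternative chosen after seeing the data, it held 8 Sd peaks (at most 7 in other windows), 15 Pol II peaks and a ratio of 0.62, with 4 windows above it. The Sd ratio was thus the highest only with the lists as deposited, counted by overlap or by peak centre, or with Sd scores of at least 3. The lowest Sd score of the window was 3.06, so the last limit removed none of its peaks and could not cost it that rank. On a grid moved by 50 kb, the window from 450 to 550 kb held 7 Sd and 10 Pol II peaks and that from 350 to 450 kb 14 and 20. In 50 kb windows, 400 to 450 kb held 9 Yki peaks, and 450 to 500 kb held 7 Yki, 2 Sd and 6 Pol II peaks. Among 1200 windows of the 6 arms, 1 had more Sd peaks. The median distance between Pol II centres was 1841.5 bp. No paired analysis was possible because there was 1 library per antibody. Depth is unknown, so a Yki peak without Sd is a site where none was called.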
